A study of Mus musculus with 8 samples.

Results

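A set of 8 genes of interleukin-6 (IL-6) and interleukin-1 (IL-1) signalling were followed in the livers of SIRT7 KO mice, which lack the histone deacetylase SIRT7, and of WT mice. The genes are Il6ra, Il6st, Osmr, Lifr, Stat3, Socs3, Il1r1 and Il1rap, and every probe set that the platform annotation gives to one of these symbols alone was kept. This gave 20 probe sets for 8 genes, out of 22626 probe sets and 12393 named genes that were tested. Of the 8 genes, 1 had 1 probe set, 2 had 2 probe sets and 5 had 3 probe sets. They were chosen by their pathway with their SIRT7 KO minus WT log2 differences on these arrays already known, so these differences are given as a description.

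Total RNA from whole liver was hybridised to Affymetrix mouse arrays, 4 from SIRT7 KO and 4 from WT mice, with 1 liver per array. The SIRT7 KO mouse is a whole-body knockout that the study uses as a model of steatohepatitis arising on a chow diet, and no other allele or treatment is given for either group. No source used here gives the age, sex or litter of these animals or the batch of each array, and p-values therefore cover the spread among these 8 livers only. Values are log2 expression, and a difference is SIRT7 KO minus WT with the standard error (SE) of the limma fit. The study set a false discovery rate of 15%, and a probe set counted as called when its adjusted p was below 0.15.

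IL-6 signals through a ligand-binding chain, IL6RA, and a shared signal-transducing chain, gp130, which is encoded by Il6st. Cytokines of the same family use gp130 together with the receptors for leukemia inhibitory factor (LIFR) or oncostatin M (OSMR). The receptor-bound JAK kinases phosphorylate STAT3, which enters the nucleus and induces acute phase genes in hepatocytes, and SOCS3, itself a STAT3 target, closes the loop by inhibiting gp130 and the kinases. IL-1 binds IL1R1, which recruits the accessory chain IL1RAP and leads to NF-kB activation. In the liver IL-1 and IL-6 together drive the acute phase response.

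The knockout was visible in the RNA. Sirt7 averaged 4.64 ± 0.22 in SIRT7 KO livers and 8.85 ± 0.19 in WT livers (SD, n = 4 each), with no overlap. Array medians lay between 6.30 and 6.36. WT array 4 stood apart on the first principal component, and SIRT7 KO arrays 3 and 4 stood apart from the other SIRT7 KO arrays on the second. The GAPDH 3' minus 5' difference was 0.107 ± 0.0822 in SIRT7 KO and 0.223 ± 0.0554 in WT livers, and the mean of 43 spike-in probe sets was 8.33 ± 0.101 in SIRT7 KO and 8.49 ± 0.0641 in WT livers (SD, n = 4 each, exact two-sided permutation p = 0.0286 for both, the smallest that 4 against 4 arrays allow). The beta-actin 3' minus 5' difference was 1.49 ± 0.152 in SIRT7 KO and 1.6 ± 0.0306 in WT livers (SD, n = 4 each, exact two-sided permutation p = 0.257). The part of these array-level differences in the results below was not tested.

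The 2 probe sets called among the 20 belonged to Il6ra and Il1rap, both of which encode receptor chains, and both were lower in SIRT7 KO livers. No member probe set was called higher, and 18 were not called. Over all probe sets 4.31% were called, 2.39% lower and 1.92% higher. At a stricter adjusted p under 0.05 no member was called, against 0.689% of all probe sets, while 3 member probe sets had an unadjusted p under 0.05. The SIRT7 KO and WT values did not overlap for 2 of the 20 probe sets, both lower in SIRT7 KO. Over all probe sets 9.35% did not overlap, and 5.56% did so with SIRT7 KO lower. The difference was negative for 15 member probe sets and positive for 5, with a median of -0.24, against a median of -0.00305 and 50.8% negative differences over all probe sets. By brightest probe set 6 of the 8 genes had a negative and 2 a positive difference, and 2 did not overlap, against 50.7% negative and 9.8% not overlapping among all genes. Nothing is read from these counts about the members, since the members were chosen with these differences in view.

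**Figure D1:**
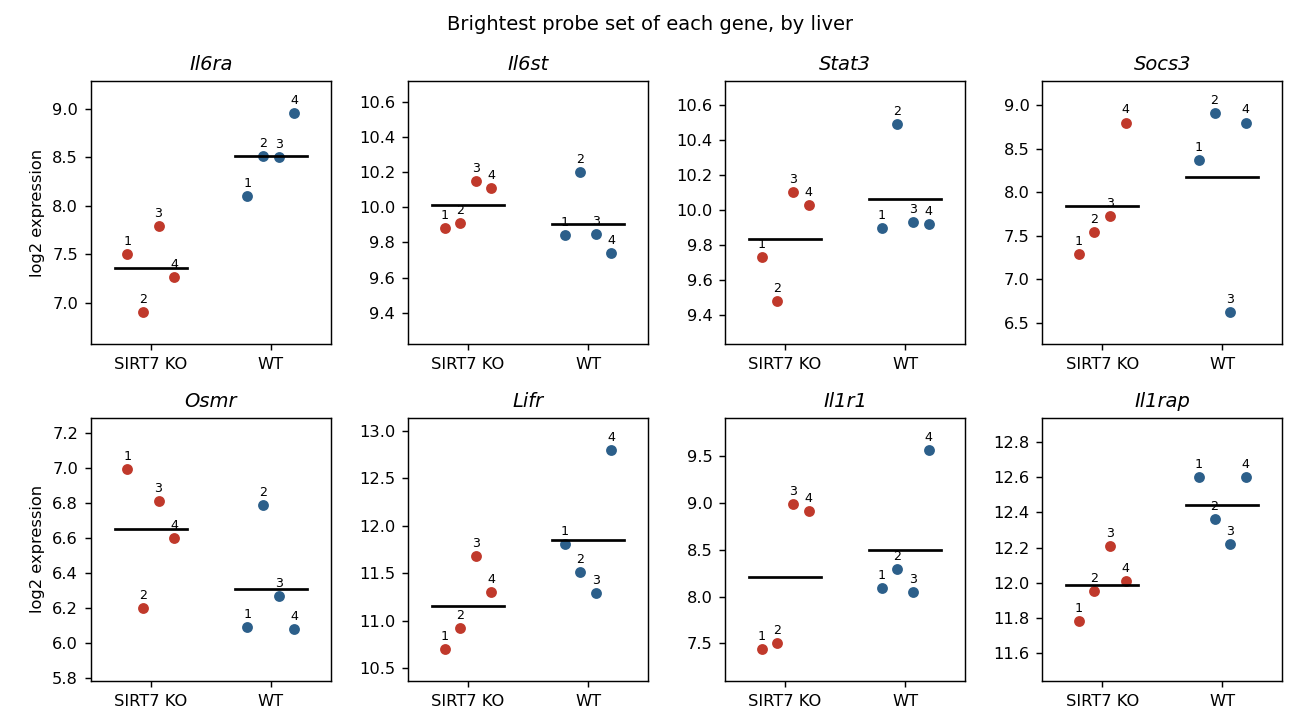
Log2 expression (y axis, a separate scale in each panel) of the brightest probe set of each of the 8 genes in the 4 SIRT7 KO livers (red) and the 4 WT livers (blue), numbered by replicate, with bars at the group means. Il6ra and Il1rap are the 2 panels whose groups do not overlap, and Il1rap is separated only by 12.21 in SIRT7 KO array 3 against 12.22 in WT array 3.

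Il6ra, the ligand-binding chain that decides which cells respond to IL-6 directly, was the member that differed most. Its brighter probe set, 1452416_at, read 7.50, 6.90, 7.79 and 7.26 in SIRT7 KO arrays 1 to 4, against 8.10, 8.51, 8.50 and 8.96 in WT arrays 1 to 4. Every SIRT7 KO liver lay below every WT liver, with SIRT7 KO array 2 lowest and WT array 4 highest. The means were 7.36 ± 0.376 in SIRT7 KO and 8.52 ± 0.35 in WT livers (SD, n = 4 each), a difference of -1.15 ± 0.213 (SE) or 2.23-fold (limma, adjusted p = 0.0511). Leaving out any 1 array gave differences between -1.3 and -1.0 with limma adjusted p between 0.0613 and 0.144, so the call did not rest on 1 liver. The gene lies on chromosome 3, and Sirt7 on chromosome 11.

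The other Il6ra probe set, 1422270_a_at, differed less. It read 6.20, 6.01, 6.28 and 6.30 in SIRT7 KO livers and 6.27, 6.39, 6.39 and 6.93 in WT livers, a difference of -0.30 ± 0.141 (limma, adjusted p = 0.367). Here the groups overlapped, because WT array 1 lay below SIRT7 KO arrays 3 and 4. Without WT array 4 this difference was -0.154. Both probe sets followed each other across the 8 arrays (r = 0.836, a description), but the gap between them was smaller in each SIRT7 KO liver than in any WT liver, and its mean differed by -0.855. The sources used here do not say which transcripts of Il6ra each probe set reads. As the mean of both probe sets, Il6ra differed by -0.726 (limma, adjusted p = 0.0875 over genes) and was still called.

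The promoter of Il6ra is shown because this gene carried the largest difference of the members. The sequence is the 250 bases before the RefSeq start of the gene in GRCm38.p6, chr3:89913197-89913446, minus strand, written 5′ to 3′. The capitals mark an E-box, CACGTG, the core sequence that MYC and related factors bind, which lies 24 to 19 bases before the start.
Il6ra: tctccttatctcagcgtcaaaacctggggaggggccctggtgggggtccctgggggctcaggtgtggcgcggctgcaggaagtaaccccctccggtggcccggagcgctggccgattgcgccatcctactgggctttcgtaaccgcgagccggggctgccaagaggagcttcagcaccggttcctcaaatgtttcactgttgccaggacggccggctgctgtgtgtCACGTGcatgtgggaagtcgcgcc
Both strands of windows of this length were searched for 5 motifs. The E-box CACGTG was in 6.02% of 32851 windows, the STAT site TTCNNNGAA in 7.02%, the C/EBP site TTGCNNAA in 9.56%, the AP-1 site TGANTCA in 6.75% and the CRE TGACGTCA in 1.55%. The 8 genes had 10 such windows, 2 each for Lifr and Il1r1. Of these, 1 held the E-box (Il6ra), 1 the STAT site (Socs3) and 1 the C/EBP site (Il1r1), while none held the AP-1 site or the CRE. A match is a stretch of letters, and no binding was measured here.

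No probe set of Il6st, the gene of the shared chain gp130, was called in either direction. The brightest Il6st probe set, 1452843_at, read 9.88, 9.91, 10.15 and 10.11 in SIRT7 KO livers and 9.84, 10.20, 9.85 and 9.74 in WT livers, a difference of 0.11 ± 0.112 (limma, adjusted p = 0.729). SIRT7 KO arrays 3 and 4 and WT array 2 were high, and the groups overlapped. Leaving out 1 array gave differences between 0.0507 and 0.204. A further Il6st probe set, 1460295_s_at, read 7.35, 7.04, 7.31 and 7.44 in SIRT7 KO livers and 7.09, 7.12, 6.58 and 7.05 in WT livers. Its difference of 0.32 ± 0.135 had an unadjusted p of 0.0394 and an adjusted p of 0.305 in limma, and without WT array 3 the difference was 0.195. The suffix of this probe set marks probes that can also match other transcripts. The remaining Il6st probe set, 1421239_at, differed by -0.04 ± 0.0645 (limma, adjusted p = 0.831).

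By their brightest probe sets, the receptors that pair with gp130 for other ligands gave 1 positive and 1 negative value. None of their probe sets was called, and those of each gene differed in sign. Osmr, the oncostatin M receptor chain, read 6.99, 6.20, 6.81 and 6.60 in SIRT7 KO livers and 6.09, 6.79, 6.27 and 6.08 in WT livers by its brighter probe set, a difference of 0.34 ± 0.198 (limma, adjusted p = 0.475). WT array 2 lay among the SIRT7 KO values, and SIRT7 KO array 2 among those of WT. Leaving out 1 array gave differences between 0.229 and 0.504. The other Osmr probe set, 1418675_at, lay below 4.557, the lower quartile of probe set means, in both groups and differed by -0.11 ± 0.0845 (adjusted p = 0.596).

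Lifr, the leukemia inhibitory factor receptor, gave different answers by probe set. The brightest, 1425107_a_at, read 10.70, 10.92, 11.68 and 11.30 in SIRT7 KO livers and 11.81, 11.51, 11.29 and 12.80 in WT livers, a difference of -0.70 ± 0.322 (limma, adjusted p = 0.351). WT array 4 stood highest, and the groups overlapped. Without WT array 4 the difference was -0.389 (adjusted p = 0.451). The second probe set, 1454984_at, read 10.13, 10.49, 11.14 and 10.65 in SIRT7 KO livers and 10.29, 10.49, 10.58 and 10.89 in WT livers, a difference of 0.04 ± 0.202 (adjusted p = 0.956). The gap between these probe sets was smaller in each SIRT7 KO liver than in any WT liver, with a mean difference of -0.741. The dimmest Lifr probe set, 1450207_at, differed by -0.23 ± 0.218 (adjusted p = 0.691). Mouse liver is known to make both a membrane-bound and a soluble LIFR, and the sources used here do not say which transcripts each probe set reads.

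**Figure D2:**
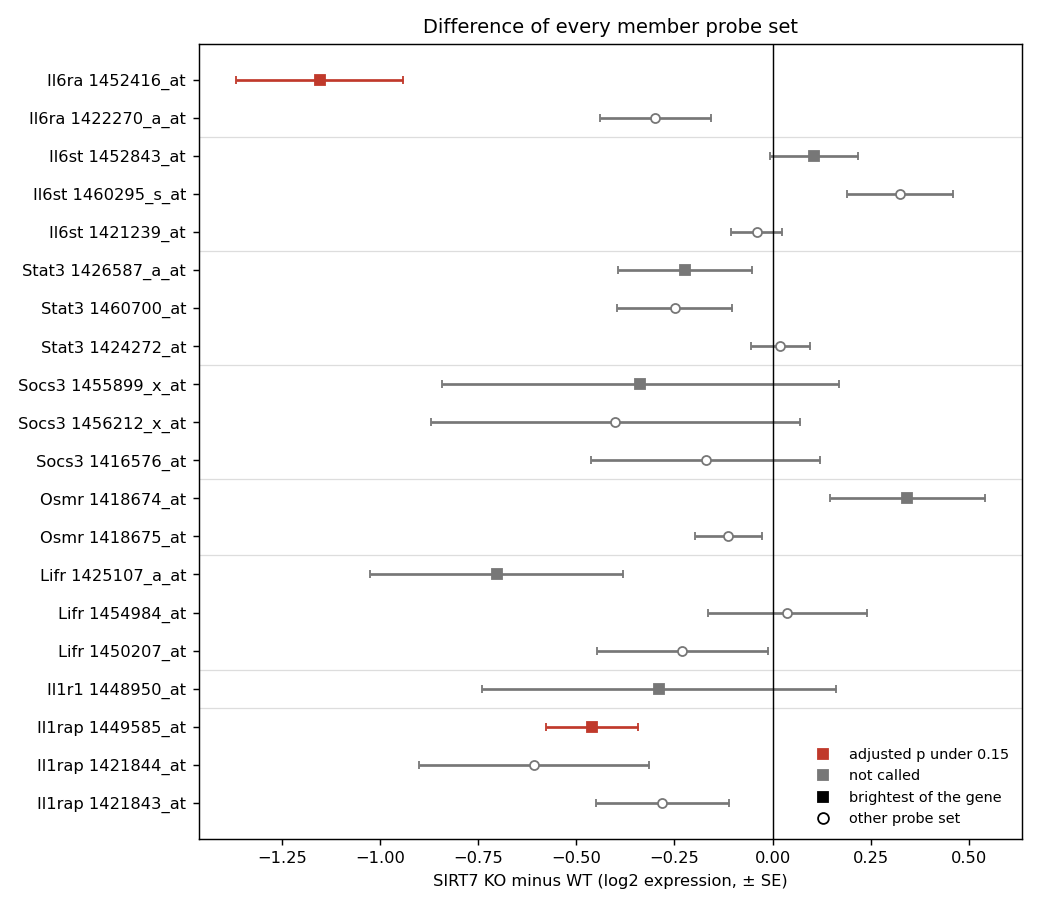
Difference between SIRT7 KO and WT livers (x axis, log2 expression, SIRT7 KO minus WT) for each of the 20 probe sets, as points with bars of 1 SE from limma. Squares are the brightest probe set of a gene, open circles its other probe sets, and red marks the 2 called probe sets, of Il6ra (-1.15) and Il1rap (-0.46).

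Downstream of these receptors, Stat3 was not called and varied mainly between livers of the same genotype. Its brightest probe set, 1426587_a_at, read 9.73, 9.48, 10.10 and 10.03 in SIRT7 KO livers and 9.90, 10.49, 9.93 and 9.92 in WT livers, a difference of -0.22 ± 0.17 (limma, adjusted p = 0.605). WT array 2 stood above the other WT livers, which lay between 9.90 and 9.93, and SIRT7 KO array 2 was lowest of all. Without SIRT7 KO array 2 the difference was -0.105 and without WT array 2 it was -0.0802. A second probe set, 1460700_at, followed it closely over the 8 arrays (r = 0.984) and differed by -0.25 ± 0.146 (adjusted p = 0.482). The last, 1424272_at, was below that quartile in both groups and differed by 0.02 ± 0.0755 (adjusted p = 0.937).

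Socs3, the feedback inhibitor of gp130 signalling, had the largest standard error of the brightest probe sets. Its brightest probe set, 1455899_x_at, read 7.29, 7.54, 7.73 and 8.80 in SIRT7 KO livers and 8.37, 8.91, 6.62 and 8.80 in WT livers. SIRT7 KO array 4 equalled the high WT livers, while WT array 3 was the lowest of the 8. The means of 7.84 ± 0.666 in SIRT7 KO and 8.18 ± 1.06 in WT livers (SD, n = 4 each) differed by -0.34 ± 0.506 (limma, adjusted p = 0.82), less than the spread within each group. The other probe sets, 1456212_x_at and 1416576_at, followed the same order of low and high livers (r = 0.985 and 0.993 with the brightest) and differed by -0.40 ± 0.47 and -0.17 ± 0.292 (adjusted p = 0.758 and 0.846). Single livers moved the difference of the brightest probe set in both directions, and it was called in none of these fits. It was -0.658 without SIRT7 KO array 4 and -0.856 without WT array 3 (adjusted p = 0.651 and 0.295), but -0.154 without SIRT7 KO array 1, -0.0914 without WT array 2 and -0.13 without WT array 4. The x suffix marks probes that can match other transcripts too. Socs3 and Stat3 lie on chromosome 11 with Sirt7, with 55 and 342 protein-coding genes between.

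The Socs3 promoter is the one member window that held a STAT site, the kind of sequence that STAT3 binds. It is shown as the 250 bases before the RefSeq start in GRCm38.p6, chr11:117969367-117969616, minus strand, 5′ to 3′, with the site in capitals 154 to 146 bases before the start.
Socs3: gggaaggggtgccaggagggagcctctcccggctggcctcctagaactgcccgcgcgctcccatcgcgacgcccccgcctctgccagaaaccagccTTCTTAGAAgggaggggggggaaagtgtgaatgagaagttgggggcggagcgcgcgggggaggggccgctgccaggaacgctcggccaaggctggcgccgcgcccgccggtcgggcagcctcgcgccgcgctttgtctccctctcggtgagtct
The level of Socs3 in each liver, given above, differed more between livers of one genotype than between the genotypes.

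On the IL-1 side, Il1rap, the accessory chain that IL1R1 and other IL-1 family receptors need to signal, was lower in SIRT7 KO livers by a small and fragile margin. Its brightest probe set, 1449585_at, read 11.78, 11.95, 12.21 and 12.01 in SIRT7 KO livers and 12.60, 12.36, 12.22 and 12.60 in WT livers. The groups did not overlap, but the highest SIRT7 KO liver and the lowest WT liver, both array 3, were 12.21 and 12.22. The means were 11.99 ± 0.176 in SIRT7 KO and 12.45 ± 0.189 in WT livers (SD, n = 4 each), a difference of -0.46 ± 0.117 or 1.38-fold (limma, adjusted p = 0.113). Leaving out 1 array kept the difference between -0.537 and -0.392, with limma adjusted p between 0.0939 and 0.261. The call was kept in 2 of these 8 fits, without SIRT7 KO array 3 and without WT array 3, and lost without SIRT7 KO array 1 (adjusted p = 0.206), 2 (0.221) or 4 (0.222) and without WT array 1 (0.261), 2 (0.17) or 4 (0.177).

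The dimmer Il1rap probe sets split the WT livers. The probe set 1421844_at read 6.20, 6.11, 6.39 and 6.38 in SIRT7 KO livers and 6.32, 6.30, 7.15 and 7.75 in WT livers, a difference of -0.61 ± 0.293 (limma, adjusted p = 0.378). WT arrays 3 and 4 were high, and WT arrays 1 and 2 lay among the SIRT7 KO values. Without WT array 4 the difference was -0.317. The same livers were high for 1421843_at, which read 5.30, 4.94, 5.07 and 5.13 in SIRT7 KO livers and 5.09, 5.05, 5.69 and 5.74 in WT livers (difference -0.28 ± 0.17, adjusted p = 0.501). In WT array 3 the brightest probe set was therefore the lowest of its group while the others were high. As the mean of the 3 probe sets, Il1rap differed by -0.45 (limma, adjusted p = 0.224 over genes) and was not called.

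Il1rap is the second gene whose groups did not overlap, and its promoter is shown for comparison with that of Il6ra. It is the 250 bases before the RefSeq start in GRCm38.p6, chr16:26581455-26581704, plus strand, 5′ to 3′, and none of the 5 motifs was found, so it has no capitals.
Il1rap: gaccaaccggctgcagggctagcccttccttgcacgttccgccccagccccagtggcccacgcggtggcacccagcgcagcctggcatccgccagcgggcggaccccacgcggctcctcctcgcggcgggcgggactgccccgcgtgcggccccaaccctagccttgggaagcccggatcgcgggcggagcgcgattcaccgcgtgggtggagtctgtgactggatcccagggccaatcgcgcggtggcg
The values of its brightest probe set, 12.21 at most in SIRT7 KO and 12.22 at least in WT livers, are those given above.

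Il1r1, the signalling receptor of IL-1, was measured by a single probe set, 1448950_at. It read 7.44, 7.50, 8.99 and 8.91 in SIRT7 KO livers and 8.09, 8.29, 8.05 and 9.57 in WT livers. SIRT7 KO arrays 3 and 4 lay above 3 of the 4 WT livers, and SIRT7 KO arrays 1 and 2 below all of them. The means of 8.21 ± 0.854 in SIRT7 KO and 8.50 ± 0.72 in WT livers (SD, n = 4 each) differed by -0.29 ± 0.451 (limma, adjusted p = 0.827). Without WT array 4 the difference was 0.0663, and without SIRT7 KO array 1 or 2 it was -0.0336 or -0.0539.

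The members varied together to unequal degrees from liver to liver. As deviations from the mean of each genotype over the 8 arrays, Stat3 went with Il6st (r = 0.93) and with Osmr (r = 0.75), while Lifr went with Il1r1 (r = 0.90) and Il1rap (r = 0.84). Between Stat3, Il6st and Osmr on one side and Lifr, Il1r1 and Il1rap on the other, r ran from -0.32 (Osmr and Il1rap) to 0.41 (Stat3 and Il1r1). Il6ra had r = 0.66 with Il1r1, 0.58 with Lifr, 0.43 with Osmr, 0.39 with Stat3, 0.23 with Il1rap and 0.10 with Il6st. Socs3 had r = 0.54 to 0.56 with Lifr, Il1r1 and Il1rap, 0.48 with Stat3, 0.41 with Il6st and 0.06 with Osmr. Socs3 and Il6ra had r = 0.07. Array effects are shared by all genes of a liver, so these values describe the 8 livers and were given no test.

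The acute phase list, 37 measured genes of the acute phase response and other known STAT3 targets, gave a readout of the response that does not use the members. Its mean over genes was 10.17, 9.84, 10.77 and 11.05 in SIRT7 KO arrays 1 to 4 and 10.07, 11.48, 10.34 and 10.91 in WT arrays 1 to 4. SIRT7 KO arrays 3 and 4 and WT arrays 2 and 4 were high, so both genotypes held livers with a high and a low acute phase level. Saa1, which encodes the acute phase protein serum amyloid A, spanned 10.25 to 14.39 in SIRT7 KO livers and 10.77 to 14.61 in WT livers. Lcn2, the siderophore-binding protein lipocalin 2, spanned 5.96 to 11.97 in SIRT7 KO and 5.75 to 12.14 in WT livers.

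Over all 8 arrays Stat3 had the highest correlation with this list of the 8 members, though not without the livers at its ends, where Il1r1 had r = 0.87 against 0.68 for Stat3. The brightest Stat3 probe set gave r = 0.88 with the list mean (exact permutation p = 0.00206, adjusted over the 8 relations 0.0165) and Spearman's rho = 0.86 (exact permutation p = 0.0107, adjusted 0.0856). Without the livers farthest from the median of the list mean, SIRT7 KO array 2 and WT array 2, r was 0.68. A rank relation past 0.05 after adjustment was therefore not found, and the size of r rested in part on those livers. WT array 4 had a high list mean of 10.91 and a Stat3 value of 9.92 close to WT arrays 1 and 3. Each genotype holds only 4 arrays, too few for a correlation within it, but as deviations from the genotype means r was 0.89. The permutations moved values among all 8 arrays without regard to genotype. The relation was examined after values of these genes had been seen. These p-values, and those of the other members below, are therefore a description and no independent support.

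For the other members no relation passed an adjusted p of 0.05. Socs3 had r = 0.66 (exact permutation p = 0.0762, adjusted 0.214) and rho = 0.71 (p = 0.0576, exact, adjusted 0.222), with r = 0.56 without the same livers. Il1r1 had r = 0.66 (exact permutation p = 0.0805, adjusted 0.214) and rho = 0.67 (p = 0.0831, exact, adjusted 0.222), with r = 0.87 without them. Il6st had r = 0.62 (exact permutation p = 0.107, adjusted 0.214) and rho = 0.43 (p = 0.299, exact, adjusted 0.478), with r = 0.45 without them. Il6ra had r = 0.45 (exact permutation p = 0.259, adjusted 0.414) and rho = 0.48 (p = 0.243, exact), with r = -0.02 without those livers. The 4 SIRT7 KO values of Il6ra lay below the 4 WT values, as given above. This separation would show against any axis, so the plot adds nothing on Il6ra and the acute phase level. Lifr, Osmr and Il1rap had r = 0.41, 0.36 and 0.29 (exact permutation p = 0.327, 0.377 and 0.47, adjusted 0.431, 0.431 and 0.47) and rho = 0.36, 0.21 and 0.24 (exact permutation p = 0.389, 0.619 and 0.582). Without those livers their r was 0.42, 0.03 and 0.02.

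**Figure D3:**
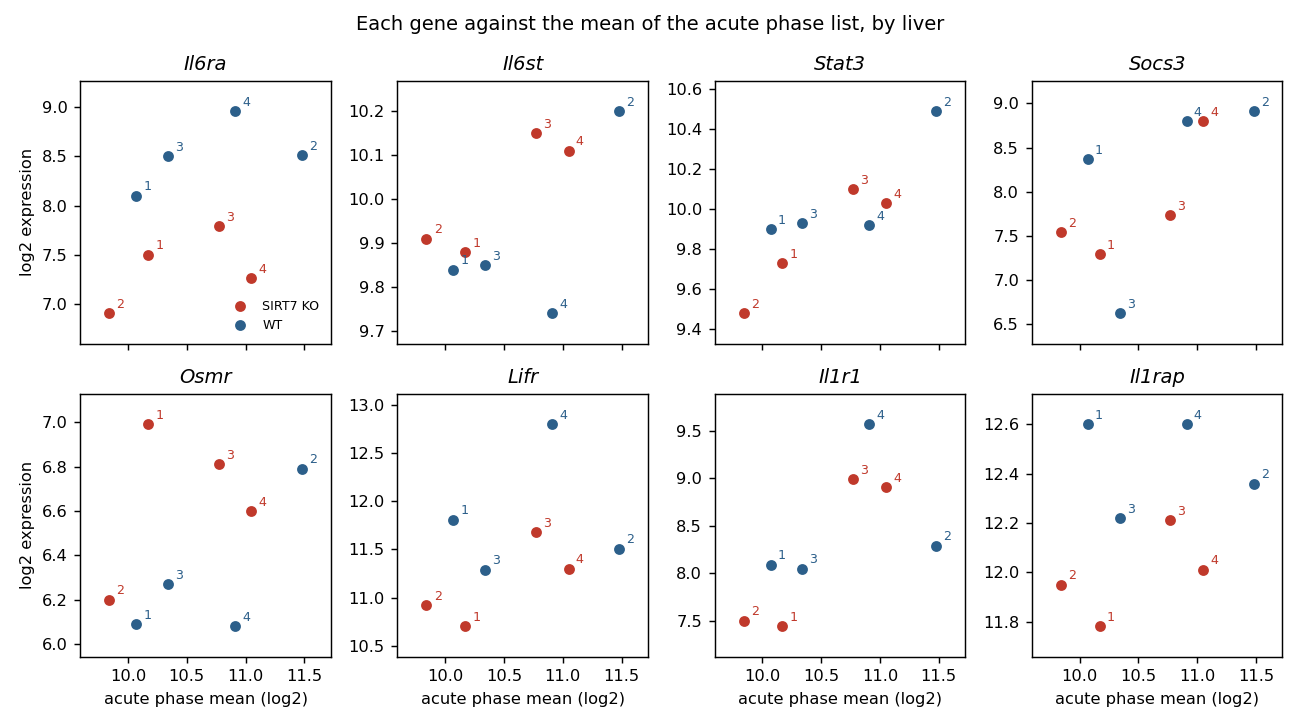
Log2 expression of the brightest probe set of each gene (y axis, a separate scale in each panel) against the mean log2 expression of the acute phase list (x axis) in the 4 SIRT7 KO livers (red) and the 4 WT livers (blue), numbered by replicate. Over the 8 arrays Stat3 has r = 0.88, with WT arrays 1, 3 and 4 level at 9.90 to 9.93 and WT array 2 above them at 10.49. The SIRT7 KO values of Il6ra lie below all WT values, as they would against any x axis.

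Immune cell markers varied between livers of one genotype as well, not always in the livers with a high acute phase mean. Neutrophil markers, 6 measured genes, averaged 5.34 to 7.97 in SIRT7 KO and 5.41 to 8.53 in WT livers, and were high in SIRT7 KO array 4 (7.97) and WT arrays 2 (8.53) and 3 (8.19), but not in SIRT7 KO array 3 (5.86) or WT array 4 (5.41). The neutrophil protein S100a8 was 11.41 in SIRT7 KO array 4 and 12.22 and 11.56 in WT arrays 2 and 3, but 5.22 to 7.13 in the other SIRT7 KO livers and 5.85 and 5.62 in WT arrays 1 and 4. S100a9 and Ngp were high in the same livers. The rest of the list did not share this rise, since Csf3r ran only from 6.32 to 6.73 over the 8 arrays, Cxcr2 from 4.25 to 4.49 and Elane from 4.68 to 5.19. Macrophage and Kupffer cell markers, 10 measured genes, averaged 9.33, 9.23, 10.08 and 9.84 in SIRT7 KO livers and 9.04, 9.98, 9.30 and 8.96 in WT livers. They were highest in SIRT7 KO arrays 3 and 4 and WT array 2, the livers in which Stat3 and Il6st were highest, and lowest in WT array 4. The part of these cells in the member values was not tested, and in whole liver fewer cells of a type cannot be told apart from less RNA per cell.

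Between the genotypes, 3 marker genes in 8 lists, of 5 to 10 measured genes each, were called higher and 1 lower in SIRT7 KO livers. Over all genes 2.17% were called higher and 2.48% lower. Hepatocyte markers, 10 measured genes such as Hnf4a (-0.27, adjusted p = 0.305) and Cps1 (-0.17, adjusted p = 0.433), averaged 14.06 to 14.10 in SIRT7 KO and 14.03 to 14.26 in WT livers, with 8 negative and 2 positive differences (median -0.0436), and none was called. All 10 macrophage markers had positive differences (median 0.257), led by Lyz2 (0.66, adjusted p = 0.352) and Cd68 (0.56, adjusted p = 0.378), and none was called. Stellate cell and fibroblast markers averaged 8.23 to 8.60 in SIRT7 KO and 7.82 to 8.22 in WT livers, barely without overlap. Their differences were 8 positive and 1 negative (median 0.292). The matrix proteoglycan genes Lum (0.73 ± 0.148, adjusted p = 0.0656) and Dcn (0.41 ± 0.101, adjusted p = 0.103) rose, 2 of 9 measured. Of 8 endothelial markers, Lyve1, a hyaluronan receptor of sinusoidal endothelium, rose by 1.21 ± 0.209 (adjusted p = 0.0463), and Egfl7 differed by 0.15 (adjusted p = 0.329). The endothelial list averaged 7.90 to 8.10 in SIRT7 KO and 7.80 to 7.97 in WT livers. Its differences were 4 positive and 4 negative, with a median of -0.00475, so the list as a whole did not rise with Lyve1.

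In the remaining marker lists 1 gene was called. The CD3 chain gene Cd3g, 1 of 8 markers of T and NK cells, fell by 0.39 (0.108 SE, adjusted p = 0.137), at 4.23 to 4.65 in SIRT7 KO and 4.60 to 4.93 in WT livers, and Cd8a differed by 0.13 (adjusted p = 0.532). This list averaged 5.14 to 5.47 in SIRT7 KO and 5.22 to 5.44 in WT livers. None was called among 5 cholangiocyte markers (4.59 to 4.71 in SIRT7 KO, 4.63 to 4.66 in WT; Epcam 0.18, adjusted p = 0.35; Krt7 0.12, adjusted p = 0.604) or 5 B and plasma cell markers (5.24 to 5.38 in SIRT7 KO, 5.18 to 5.91 in WT; Ms4a1 -0.21, adjusted p = 0.425; Cd22 0.10, adjusted p = 0.633). The neutrophil markers with the smallest p were Elane (-0.20, adjusted p = 0.485) and Ngp (-1.56, adjusted p = 0.683). All these adjusted p are from limma. The part of the hepatocyte, stromal and endothelial values in the difference of Il6ra was not tested.

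The rest of the IL-6 and IL-1 pathways was followed in 10 lists with 127 measured genes, each gene by its brightest probe set. Of these 1 rose and 4 fell, or 3.94% called, against 4.65% of all 12393 genes, 2.17% higher and 2.48% lower. Their median difference was -0.0225, against -0.00306 over all genes. The calls lay in 4 lists, and the other 6 had none. None of the 5 held at an adjusted p under 0.05, and each was lost in at least 5 of the 8 fits that left out 1 array.

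**Figure D4:**
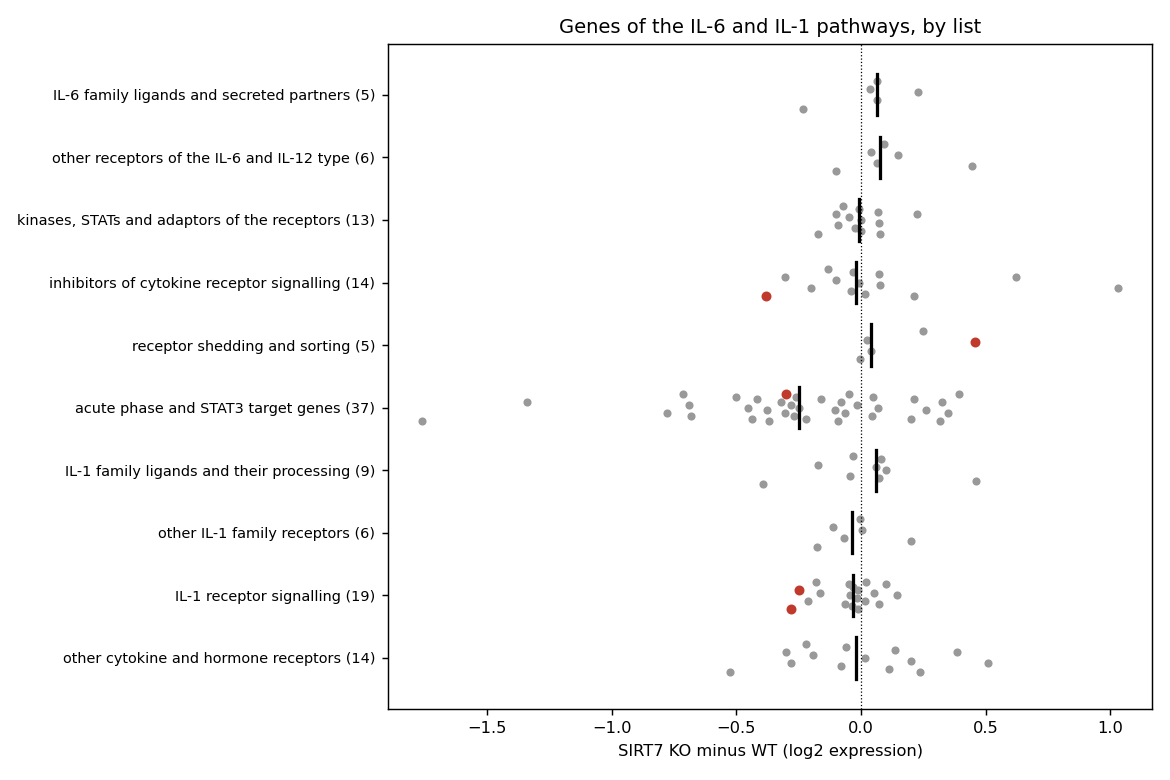
Difference between SIRT7 KO and WT livers (x axis, log2 expression, SIRT7 KO minus WT) for the genes of 10 pathway lists, 1 point per gene by its brightest probe set, with the number of measured genes in parentheses and a bar at the list median. Red points are the called genes, Rhbdf1 above 0 and Pias2, Agt, Tollip and Peli1 below 0.

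No ligand of either family was called. Of 5 measured IL-6 family ligands and secreted partners (median 0.0638), Il6 itself was 3.60 to 3.93 in SIRT7 KO and 3.78 to 4.16 in WT livers, a difference of -0.23 ± 0.106 (adjusted p = 0.345), and it lay below the lower quartile of probe set means in both. Ctf1, which encodes cardiotrophin 1, a gp130 ligand, differed by 0.23 ± 0.12 (adjusted p = 0.433) and Il11 by 0.06 ± 0.084 (adjusted p = 0.787). Among 9 IL-1 family ligands and processing genes (median 0.0605) the alarmin Il33 differed by 0.46 ± 0.166 (adjusted p = 0.238), Il18 by -0.39 ± 0.175 (adjusted p = 0.338) and Il1a by -0.17 ± 0.136 (adjusted p = 0.617).

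None was called among the other measured receptors either. The 6 other receptors of the IL-6 and IL-12 type (median 0.0778) were led by the leptin receptor gene Lepr (0.45 ± 0.201, adjusted p = 0.344), Cntfr (0.09, adjusted p = 0.655) and Il12rb2 (0.15, adjusted p = 0.672). The 6 other IL-1 family receptors (median -0.0361) were led by the decoy receptor Il1r2 (0.20 ± 0.0726, adjusted p = 0.239), the inhibitory receptor Sigirr (-0.18 ± 0.0825, adjusted p = 0.359) and Il18r1 (-0.11, adjusted p = 0.616). Of 17 listed other cytokine and hormone receptors 14 were measured (median -0.0216). They were led by the IL-17 receptor gene Il17ra (-0.28 ± 0.0832, adjusted p = 0.163), the growth hormone receptor gene Ghr (-0.30 ± 0.105, adjusted p = 0.221) and Csf2rb (0.51 ± 0.188, adjusted p = 0.249). These are limma values, as are those of the lists that follow. The prolactin receptor gene Prlr was listed but had no probe set annotated to it alone, so it was not examined here. The study lists both Prlr and Ghr as lower in SIRT7 KO livers in its own microarray analysis, by p-values without correction for multiple testing. It refers to supplementary data for that correction, and reports that its quantitative real-time PCR of growth axis genes gave the same pattern.

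Among the pathway genes, the only called increase was in the list of receptor shedding and sorting. ADAM proteases shed IL6RA and other receptors from the cell surface, and the inactive rhomboid proteins regulate the maturation of ADAM17. Rhbdf1, which encodes one of these, read 6.22, 5.99, 5.75 and 5.86 in SIRT7 KO livers and 5.42, 5.53, 5.45 and 5.58 in WT livers. All SIRT7 KO values lay above all WT values, with a difference of 0.46 ± 0.103 (adjusted p = 0.084), and the call was kept in 3 of 8 fits without 1 array. Leaving out SIRT7 KO array 2 or 4, or WT array 1, 2 or 3, ended the call (adjusted p up to 0.214). Adam17 itself differed by -0.0024 (adjusted p = 0.993), Adam10 by 0.04 (adjusted p = 0.907) and the metalloprotease inhibitor Timp3 by 0.25 ± 0.141 (adjusted p = 0.467), in a list of 5 measured genes with a median of 0.039.

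Of 13 kinases, STATs and adaptors none was called (median -0.0068), and the smallest p were those of Stat5a (0.23 ± 0.0864, adjusted p = 0.263), Gab1 (-0.17 ± 0.101, adjusted p = 0.486) and Grb2 (-0.10 ± 0.0769, adjusted p = 0.614). Stat5a, which acts downstream of growth hormone, did not overlap between the groups. Of 14 inhibitors of cytokine receptor signalling (median -0.0198), Pias2, an E3 SUMO ligase of a family first known for inhibiting STAT proteins, fell by 0.38 (0.108 SE, adjusted p = 0.146). Its other probe set differed by -0.14 (adjusted p = 0.514), and the call was kept in 1 of 8 fits without 1 array. Socs6 (-0.31 ± 0.0986, adjusted p = 0.189) and the phosphatase gene Ptpn6 (0.21 ± 0.0859, adjusted p = 0.286) were not called.

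Among the 19 genes of IL-1 receptor signalling (median -0.0342), Tollip and Peli1 fell. Tollip, an adaptor that restrains IL-1 receptor and Toll-like receptor signalling, read 9.12 to 9.29 in SIRT7 KO and 9.39 to 9.48 in WT livers (-0.25 ± 0.0648, adjusted p = 0.12), and its other, dimmer probe set differed by -0.08 (adjusted p = 0.888). Peli1, a ubiquitin ligase of the same pathway, read 8.29 to 8.42 in SIRT7 KO and 8.50 to 8.71 in WT livers (-0.28 ± 0.0733, adjusted p = 0.126), with a difference of -0.27 (adjusted p = 0.262) for its other probe set. The calls were kept in 1 and 2 of 8 fits without 1 array. The NF-kB kinase gene Ikbkb differed by -0.18 ± 0.0662 (adjusted p = 0.24).

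Of the 37 acute phase and STAT3 target genes, 1 fell and none rose, against 2.48% lower and 2.17% higher over all genes. Differences were positive for 10 and negative for 27, with a median of -0.248, against 50.7% negative and a median of -0.00306 over all genes. The list mean was high and low within both genotypes, as given above, so these signs are not 37 separate observations. Agt, which encodes angiotensinogen, read 10.93 to 11.21 in SIRT7 KO and 11.30 to 11.44 in WT livers (-0.30 ± 0.0755, adjusted p = 0.111), a call kept in 1 of 8 fits without 1 array. The largest difference was that of Hamp, the gene of the iron hormone hepcidin, at 8.85, 11.36, 11.02 and 11.73 in SIRT7 KO livers and 12.20, 13.01, 12.74 and 12.05 in WT livers. These groups did not overlap, but SIRT7 KO array 1 lay far below the rest, and the difference of -1.76 ± 0.551 was not called (adjusted p = 0.179). Timp1, a metalloprotease inhibitor, differed by 0.39 ± 0.14 (adjusted p = 0.231) and did not overlap either. It was dim, at 4.37 to 5.01 in SIRT7 KO and 3.98 to 4.35 in WT livers, the latter all below 4.557, the lower quartile of probe set means. In this list 3 of 37 genes did not overlap, against 9.8% of all genes. Hepcidin and serum amyloid A genes have near-identical copies in the mouse that a probe set may not separate.

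By the likeness of their pattern over the 8 arrays, the genes nearest to Il6ra were Zscan26 (r = 0.975), Zbtb48 (0.964), Eef1d (0.962), Dstyk (0.96) and Brwd1 (0.959). After the genotype means were removed, r was 0.966 for Zscan26, 0.945 for Zbtb48, 0.853 for Eef1d, 0.837 for Dstyk and 0.908 for Brwd1. Of these Dstyk was called (-0.27, limma adjusted p = 0.136). Nearest to Socs3 were Rps28 (r = 0.95), Gm3716 (0.94), Bcl2l11 (0.927), Dr1 (0.927) and Scube2 (0.925), none of them called. Gm3716 (means 3.82 in SIRT7 KO and 3.84 in WT livers) and Scube2 (3.79 and 3.80) lay below 4.557, the lower quartile of probe set means. These were the highest of 12393 genes over 8 arrays, and they are given as a description.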

How the data were processed

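Total RNA of 4 SIRT7 KO and 4 WT livers was measured on 8 arrays. The authors deposited log2 expression values, 1 per probe set and array, which were used as they stand. The methods of the study name RMA for this step and the submitters' processing notes name GCRMA, so which of them made the values is unknown, and no source used here gives versions. Of 22690 probe sets, 64 controls were left out and 22626 were tested. The platform annotation, which can be old, gave 1 symbol to 20380, several to 691 and none to 1555. No table column belonged to other samples. The genotypes were compared by limma 3.58.1 in R 4.3.3 (lmFit and eBayes, genotype only, two-sided), with p adjusted over every tested probe set (Benjamini-Hochberg) and a threshold of 0.15. In the lists and correlations each of 12393 genes stood by its brightest probe set, the one with the highest mean over the 8 arrays. Probe sets below 4.557, the lower quartile of probe set means, were described as low. The fit was tested on simulated data.

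The members and lists were chosen with earlier results of these data known, so calls among them are not independent evidence. Named were all member probe sets, Sirt7, in each pathway list the called genes and the 3 smallest p, in each marker list the called genes and the 2 smallest p, and the 5 genes most like Il6ra and Socs3. Saa1, Lcn2, S100a8, S100a9, Csf3r, Cxcr2 and Adam17 were added after their values were seen. Prlr, which has no value here, was added because the study reports it. The alternatives were an adjusted p under 0.05, trend and robust variance, array weights, quantile normalization, median centring, a filter on dim probe sets, the mean over the probe sets of a gene, a replicate block, probe sets annotated to several genes and leaving out each array. Promoters are RefSeq sequences of GRCm38.p6, matched by symbol for all 8 members. The number of arrays limits the precision.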

Additional observations from a re-analysis of the deposited data

Results flagged for a closer look

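Of 50 groups of 4 arrays examined, 3 held a liver that stood far from the other 3 of its group, by Dixon's criterion, and chance alone flags about 1 in 20 groups. For Stat3 (1426587_a_at) WT array 2 read 10.49 while the other WT livers lay between 9.90 and 9.93. For Il1r1 (1448950_at) WT array 4 read 9.57, against 8.05 to 8.29 in the others. For Il6st (1460295_s_at) WT array 3 read 6.58, against 7.05 to 7.12. All 3 were WT livers. WT array 2 also had the highest acute phase mean (11.48) and neutrophil marker mean (8.53) of the 8 livers, and WT array 4 stood apart on the first principal component. The part of these in the flagged values was not tested.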

How the results depend on the processing

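Il6ra kept its sign and its call in every alternative except the stricter threshold of 0.05, where its adjusted p of 0.0511 was not past it, but its difference was -0.726 as the mean of both probe sets, against -1.15 for the brightest. At that threshold 156 probe sets were called in place of 975, 0 of the 20 member probe sets in place of 2, and 0 of the 127 pathway genes in place of 5 (limma; 3 member probe sets at an unadjusted p under 0.05). Array weights gave 8 pathway genes and a further quantile normalization 3. Without 1 array the whole table gave 222 to 900 calls, the members 1 to 2 and the pathway genes 0 to 4. The whole-table count moved by over 1.5 times without SIRT7 KO arrays 1 (576), 2 (460), 3 (594) or 4 (267) and WT arrays 1 (222) or 2 (503), where fewer arrays are fitted. The sign turned for Stat3 1424272_at (-0.00328 after quantile normalization, -0.0355 without SIRT7 KO array 3), Lifr 1454984_at (-0.0523 without WT array 1, -0.141 without SIRT7 KO array 3) and Il1r1 (0.0663 without WT array 4), none of them called, and the cause was not tested. Without 1 array these ranged from -0.0355 to 0.0645 for Stat3 1424272_at, from -0.141 to 0.196 for Lifr 1454984_at and from -0.549 to 0.0663 for Il1r1. The labels number the arrays 1 to 4 in each group, but same-numbered arrays did not deviate together (r = 0.255, -0.252, -0.163 and 0.145), so the numbers were not taken as pairs. With the replicate block 628 probe sets, 1 member (Il6ra, while Il1rap had an adjusted p of 0.217) and 0 pathway genes were called, and 2 of 4 SIRT7 KO arrays, 1 of them with its own number, correlated best with WT array 1. No probe set annotated to several genes included a member, so that alternative added 0 probe sets. Of the comparisons of single probe sets with an alternative, 324 kept sign and call, 57 lost the call and 5 turned sign. Most of these comparisons were of member probe sets not called in the main fit, which had no call to lose. All 57 losses fell on the 2 called member probe sets and the 5 called pathway genes, so the 324 do not show that calls were stable.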
